A study of Mus musculus with 12 samples.

Results

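The genes described here are 37 genes of homologous recombination, the Fanconi anaemia pathway and the DNA damage response, chosen by symbol and matched to 37 of the 56748 genes counted in the study. They were followed in Lin-Sca+Kit+ (LSK) cells, the bone marrow fraction that holds haematopoietic stem cells and multipotent progenitors, of mice carrying an inducible BCR-ABL transgene as a model of chronic myeloid leukaemia (CML). All 12 libraries came from SCLtTA/BCR-ABL (DTG) donor marrow (CD45.2) in B6.SJL recipients (CD45.1) aged 8 to 12 weeks that had been irradiated with 2 doses of 4.25 Gy. Tetracycline in the drinking water holds the transgene off, and all recipients had it for the first 2 weeks after transplant. In the CTRL group (n = 6) it was kept. In the CML 2wk group (n = 6) tetracycline was withdrawn and CD45.2+ LSK cells were sorted 2 weeks later. The transactivator is driven by regulatory sequence of Scl, a gene of stem and progenitor cells, and donor marrow was a pool from several mice, so the libraries of a group share their donors. The human transgene transcript was not among the genes counted, so that its induction was not checked here.

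Homologous recombination copies lost sequence from the sister chromatid: the MRN complex processes a broken end, BRCA1 with BARD1 and BRCA2 with PALB2 then prepare strand exchange, and the BCDX2 and CX3 complexes assist it. The Fanconi anaemia pathway unhooks cross-links between DNA strands: a core complex attaches ubiquitin to FANCD2 and FANCI, and nucleases gathered on SLX4 then cut. The ATM and ATR kinases signal damage through CHEK2 and CHEK1, and Ku with DNA-PK joins ends without a template. Inherited loss of the Fanconi genes causes bone marrow failure with loss of haematopoietic stem cells.

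Many of these genes are transcribed with S phase and some carry E2F sites near their start, so their promoters were read first. RefSeq promoter windows (GRCm38.p6, 250 bases before to 50 after the start) were held for 31 of the 37 genes. A gene could have several windows, and a match in any of them counted. The E2F letters TTTGGCGC, TTTCCCGC, TTTCGCGC or TTTGCCGC, on either strand, were found for 8 of the 31 genes (25.8%). The share was 2.60% of all 27025 genes with a window and 4.51% of the 11161 of them tested here. The letters were found for 0 of the 4 genes that were higher in CML 2wk, 5 of the 16 that were lower and 3 of the 11 that did not pass the test. These counts are too small to show a difference. The stretches of 100 bases below show 3 lower genes and a gene that did not pass the test with a match (capitals), and the windows of Fancb and Chek1, both higher and without a match. They are printed so that the matched letters can be seen in their setting, and a match is a description of letters, not of binding.
Fancg, chr4:43010302-43010401, minus strand, lower: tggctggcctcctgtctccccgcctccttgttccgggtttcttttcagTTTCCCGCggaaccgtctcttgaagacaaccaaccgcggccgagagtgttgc
Chek2, chr5:110839793-110839892, plus strand, lower: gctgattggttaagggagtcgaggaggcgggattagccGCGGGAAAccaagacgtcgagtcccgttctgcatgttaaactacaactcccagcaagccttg
Xrcc6, chr15:82016269-82016368, plus strand, lower: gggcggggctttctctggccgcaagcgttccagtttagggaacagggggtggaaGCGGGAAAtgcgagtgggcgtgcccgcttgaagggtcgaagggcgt
Brca2, chr5:150522411-150522510, plus strand, did not pass the test: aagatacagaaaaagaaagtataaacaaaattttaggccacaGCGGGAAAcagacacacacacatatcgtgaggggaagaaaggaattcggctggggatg
Fancb, chrX:164980492-164980591, plus strand, higher: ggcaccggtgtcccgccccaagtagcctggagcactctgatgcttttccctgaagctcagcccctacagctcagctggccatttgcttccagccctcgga
Chek1, chr9:36726659-36726758, minus strand, higher: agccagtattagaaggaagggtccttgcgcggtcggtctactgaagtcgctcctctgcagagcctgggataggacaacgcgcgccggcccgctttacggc
The CCAAT box was found for 64.5% of the 31 genes against 42.3% of the genes tested that had a window. It was found for 3 of the 4 higher genes and 12 of the 16 lower genes. The cell cycle homology letters TTTGAA or TTTCGAA were found for 6.45% of the 31 genes, namely Rad51b and Bard1, against 16.0% of the genes tested that had a window.

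Library totals ran from 22804754 to 41832868 counts in CTRL and from 16150817 to 25070105 in CML 2wk, and no library had fewer than 73 counts for any of the 37 genes. The mitochondrial share of counts was 0.816% to 1.29% in CTRL and 2.26% to 2.97% in CML 2wk, and 26783 to 28602 and 22965 to 25726 genes had a count, both without overlap. The part of these differences in the results below was not tested. Kit and Ly6a, which define the sort, were counted in every library, with medians of 745 and 418 CPM for Kit. The summed level of 12 stem and progenitor markers was 3027 to 3443 CPM in CTRL and 1750 to 2246 CPM in CML 2wk, with 10 of the 12 lower and 1 higher. Of 8 mast cell and basophil markers 6 were higher, with sums of 78.3 to 169.9 CPM and 406 to 2370 CPM, and of 10 monocyte markers 5 were higher, with sums of 354 to 584 CPM and 574 to 1235 CPM. Of 9 stromal markers tested 4 were higher, with sums of 93.0 to 114 CPM and 66.9 to 962 CPM. The sums of 9 lineage markers, against which the cells were sorted, were 17.4 to 46.96 CPM and 9.68 to 26.3 CPM, those of 8 erythroid markers were 188 to 247 CPM and 291 to 673 CPM although 6 of the 8 were lower and 1 higher, and no marker was at 0 in all libraries. The part of these cells in the results below was not tested. The biological coefficient of variation was 10.8% in CTRL and 32.4% in CML 2wk, or 24.5% without CML 2wk replicate 2, which had the highest mast cell, basophil and stromal sums. The labels give every CTRL library as male and every CML 2wk library as female, yet Xist was at 3794 to 4425 CPM in CTRL and 2183 to 3502 CPM in CML 2wk and the Y-linked Ddx3y reached at most 24 and 202 counts. These levels do not follow the labelled sexes. In bulk RNA, fewer cells of a type and less RNA per cell cannot be told apart.

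More of the 37 genes were lower than higher in CML 2wk. Of the 37, 20 were lower, 5 were higher and 12 did not pass the test (edgeR's quasi-likelihood test, Benjamini-Hochberg adjusted p under 0.05 over 18438 genes). All 37 passed the filter on low counts, and fold changes are given on the log2 scale with their SE. Among all genes tested, 29.0% were lower and 30.6% higher, 59.5% in all. The median log2 fold change (CML 2wk over CTRL) was -0.23 for the 37 genes and 0.067 for all genes tested. The 2 groups of libraries did not overlap for 16 of the 37 genes, 12 of them lower and 4 higher (37.6% of all genes tested did not overlap, 20.6% lower and 17.0% higher). The summed level of the 37 genes was 2703 to 3069 CPM in CTRL (median 2943) and 2150 to 2558 CPM in CML 2wk (median 2429), without overlap. The higher genes were Fancb, Fancc, Rad51b, Xrcc2 and Chek1, and the largest decreases were those of Fancg, Slx4, Parp1 and Xrcc5. The plot of fold changes by pathway shows higher and lower genes side by side within the Fanconi core, the BCDX2 and CX3 genes and the checkpoint kinases.

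**Figure D1:**
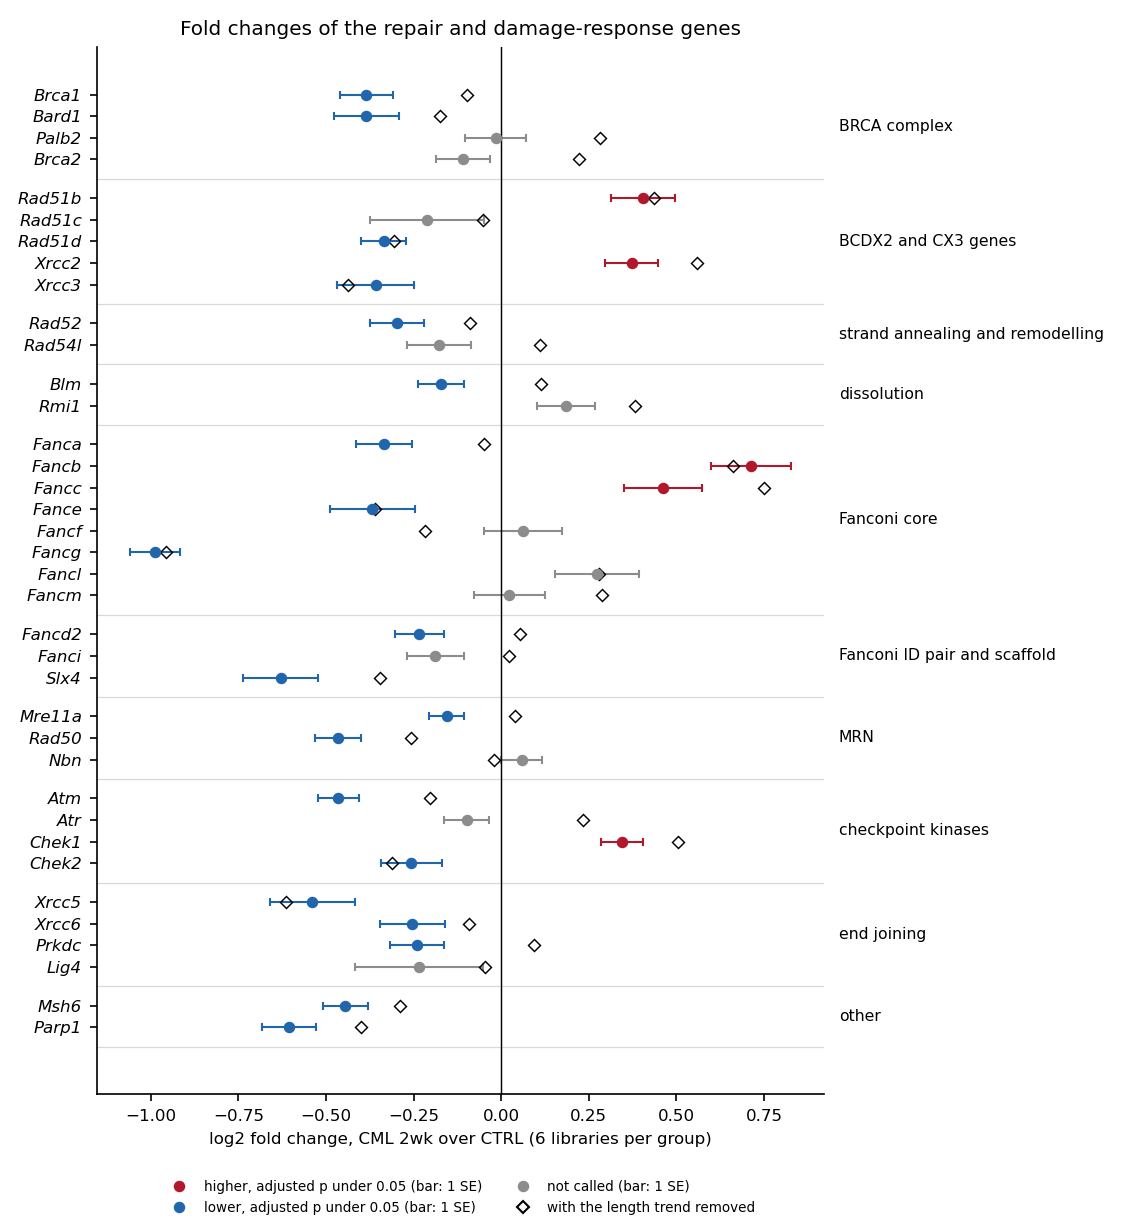
Log2 fold change of each of the 37 genes (CML 2wk over CTRL, 6 libraries per group), grouped by pathway on the right. Filled points with bars of 1 SE are coloured by the edgeR call and open diamonds give the value with the length trend across all genes removed. Fancg at -0.99 and Fancb at 0.71 are the extremes, and most diamonds sit to the right of their points.

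The excess of lower genes shrank when the trend with transcript length was removed, and less when the trend with GC content alone was removed. Across all genes with a mean log2 CPM of at least 3, the median log2 fold change was 0.40 in the shortest of 8 length bins (67 to 2117 exonic bases) and -0.30 in the longest (9401 bases or more). It also ran from 0.28 in the bin of lowest GC content to -0.50 in that of highest GC content. The 37 genes had a median exon length of 5375 bases against 3504 for the genes tested, and a median GC content of 45.9% against 48.8%. With the length trend removed, 10 of the 37 were higher and 11 lower (29.1% and 26.4% of all genes), with a median of -0.047. With the GC trend alone removed 6 were higher and 17 lower, with a median of -0.20, and the shares of all genes were not counted for that fit. With both trends removed 5 were higher and 11 lower (27.1% and 24.1%), with a median of -0.060. With upper-quartile scaling in place of TMM 7 were higher and 14 lower (34.5% and 25.8%). The source of the trends was not tested. All 5 higher genes, and 7 of the 20 lower ones, namely Fancg, Rad51d, Rad50, Atm, Xrcc5, Msh6 and Parp1, kept their call in each of the 22 alternative fits, the fits with trends removed among them.

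**Figure D2:**
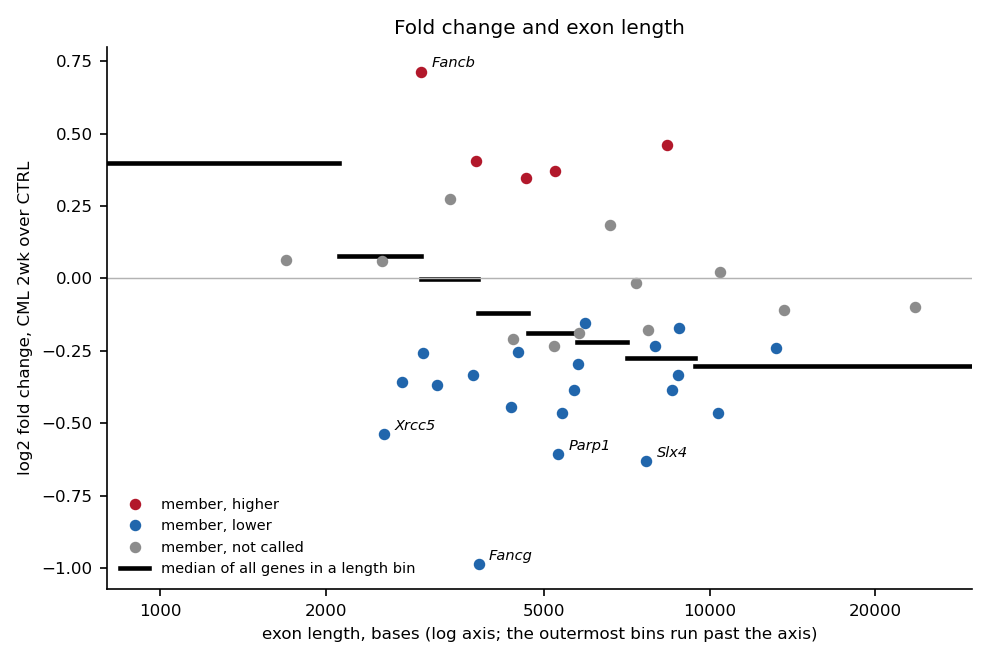
Log2 fold change (vertical) of the 37 genes against exon length in bases (log axis), coloured by call, with black bars for the median of all genes in each of 8 length bins. The bars fall from 0.40 to -0.30, and Fancg lies far below, and Fancb and Fancc far above, the bar at their length.

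The Fanconi core complex split by gene. FANCG is the adaptor that holds FANCA in the complex, and Fancg fell the most of the 37 genes, from a median of 27.7 CPM in CTRL (27.0 to 29.5) to 14.2 CPM in CML 2wk (12.7 to 15.6). Every CML 2wk library was below every CTRL library, with a log2 fold change of -0.99 ± 0.072 (adjusted p = 8.3e-08 in edgeR). The value was -0.96 with the length trend removed and -0.84 with both trends removed. Fanca fell from a median of 55.6 CPM in CTRL (54.7 to 63.5) to 45.2 CPM in CML 2wk (39.7 to 52.6), a log2 fold change of -0.33 ± 0.080 (adjusted p = 0.0024 in edgeR), also without overlap. Its call was lost with the length trend removed (-0.049), and the value was 0.17 with both trends removed. The third gene of this subcomplex, Faap20, fell from a median of 22.5 CPM in CTRL (20.98 to 24.8) to 14.0 CPM in CML 2wk (12.3 to 20.03), a log2 fold change of -0.58 ± 0.11 (adjusted p = 0.00050 in edgeR). Its call was lost with the GC trend removed (-0.11). Between the replicate 6 libraries of the 2 groups it differed by only -0.067 on the log2 scale.

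FANCB, FANCL and FAAP100 form the catalytic subcomplex, in which FANCL is the ubiquitin ligase. Fancb rose from a median of 13.9 CPM in CTRL (13.6 to 14.8) to 21.7 CPM in CML 2wk (17.8 to 30.4), with all 6 CML 2wk libraries above all CTRL libraries (log2 fold change 0.71 ± 0.11, adjusted p = 8.2e-05 in edgeR). Between the replicate 6 libraries of the 2 groups, which are not known to be paired, Fancb differed by 0.94 on the log2 scale. Fancb is X-linked, and Xist was lower in CML 2wk, as given above, and the part of this in the rise of Fancb was not tested. Fancl was at a median of 18.0 CPM in CTRL (15.2 to 18.9) and 21.7 CPM in CML 2wk (14.9 to 26.9) and did not pass the test (log2 fold change 0.27 ± 0.12, adjusted p = 0.061 in edgeR). It was above all CTRL libraries in 5 of the 6 CML 2wk libraries and passed as higher without CML 2wk replicate 2, at 0.35, as it did with upper-quartile scaling, also at 0.35. With the GC trend removed it was at 0.060. Faap100 fell from a median of 33.7 CPM in CTRL (31.8 to 37.1) to 18.8 CPM in CML 2wk (14.6 to 25.1), a log2 fold change of -0.84 ± 0.11 (adjusted p = 1.3e-05 in edgeR), so that genes of this subcomplex moved in opposite directions. With both trends removed Faap100 was at -0.15.

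FANCC, FANCE and FANCF bridge the core to its substrate. Fancc rose from a median of 25.9 CPM in CTRL (23.7 to 26.9) to 35.1 CPM in CML 2wk (25.1 to 44.8), a log2 fold change of 0.46 ± 0.11 (adjusted p = 0.0023 in edgeR), and 5 of its 6 CML 2wk libraries were above all of CTRL. Fance fell from a median of 20.2 CPM in CTRL (19.0 to 22.7) to 15.3 CPM in CML 2wk (12.4 to 21.8), a log2 fold change of -0.37 ± 0.12 (adjusted p = 0.017 in edgeR). In 5 of 6 libraries it was below all of CTRL, but the sign turned with the GC trend removed (0.11) and with both removed (0.15). Fancf was at a median of 10.6 CPM in CTRL (9.72 to 11.5) and 11.1 CPM in CML 2wk (8.73 to 13.4) and did not pass the test (log2 fold change 0.063 ± 0.11, adjusted p = 0.64 in edgeR), although it passed as higher with the GC trend removed (0.44). FANCM, the translocase that brings the core to DNA, had Fancm at a median of 56.0 CPM in CTRL (53.1 to 59.7) and 58.5 CPM in CML 2wk (39.4 to 67.1), a log2 fold change of 0.023 ± 0.10 (adjusted p = 0.86 in edgeR). It passed as higher with the length trend removed (0.29). Fancc shares 18.6%, Fancf 15.0%, Fancl 13.7%, Fanca 10.5%, Fancm 7.07% and Fance 3.26% of their exonic bases with genes on the other strand. Since the strand setting of the counting was not given in the sources used here, those levels are less certain than that of Fancg, which shares none (0%).

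**Figure D3:**
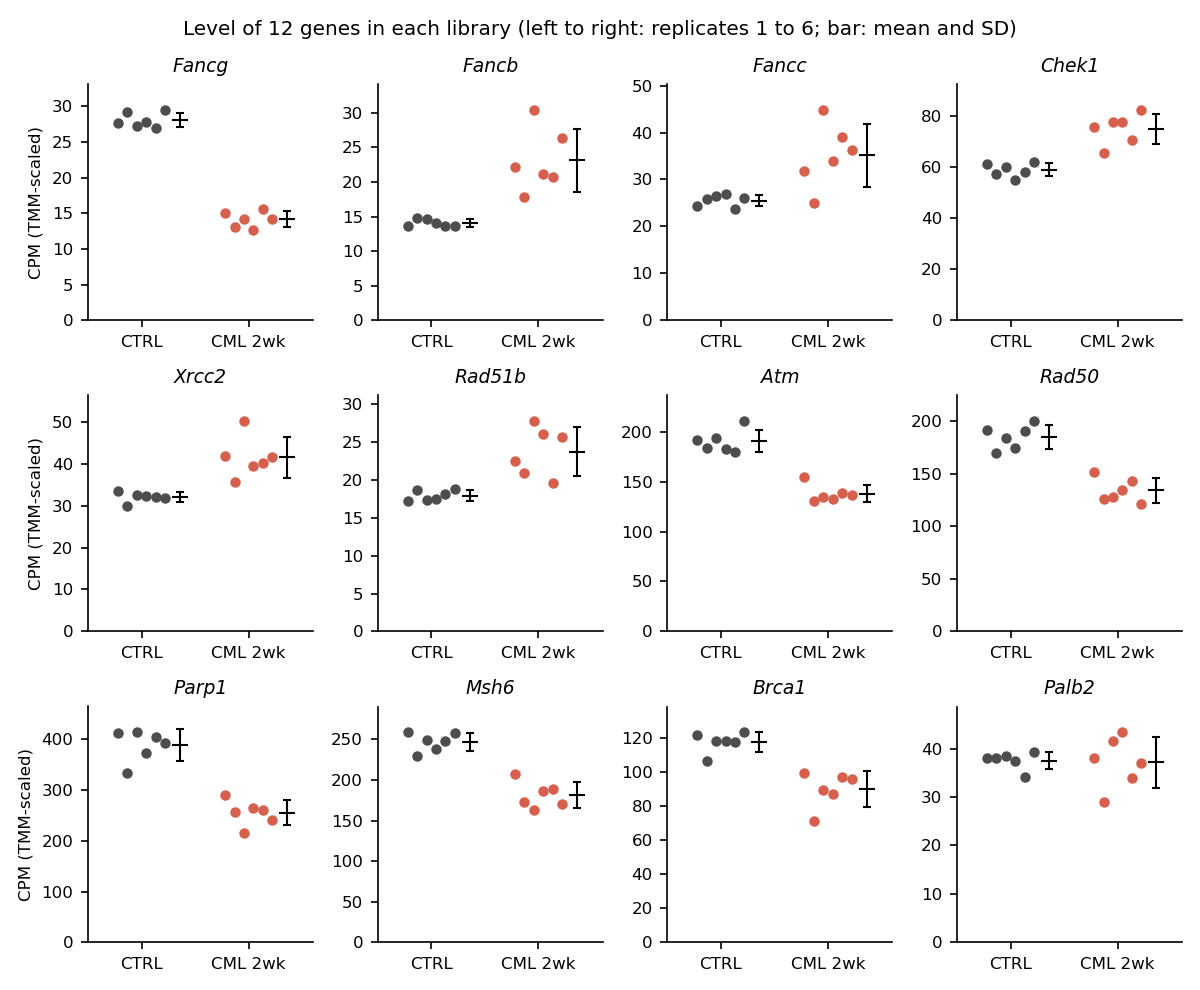
Level of 12 of the genes in each library (CPM with TMM-scaled library sizes, linear axes from 0), replicates 1 to 6 from left to right, with mean and SD (n = 6) beside each group. Fancg, Atm, Rad50, Parp1, Msh6 and Brca1 are lower in every CML 2wk library, Fancb, Chek1, Xrcc2 and Rad51b are higher in every one, Fancc overlaps in 1 library, and Palb2 (34.1 to 39.3 and 29.0 to 43.5 CPM) overlaps.

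Downstream of the core, the substrate pair FANCD2 and FANCI clamps DNA. Fancd2 fell from a median of 67.3 CPM in CTRL (55.7 to 73.3) to 56.9 CPM in CML 2wk (49.8 to 61.5), a log2 fold change of -0.23 ± 0.071 (adjusted p = 0.010 in edgeR). In 2 of 6 CML 2wk libraries it was below all of CTRL, and its call was lost with upper-quartile scaling (-0.16, adjusted p = 0.055 in edgeR). Fanci was at a median of 53.2 CPM in CTRL (44.6 to 55.2) and 46.5 CPM in CML 2wk (37.3 to 52.0) and did not pass the test (log2 fold change -0.19 ± 0.081, adjusted p = 0.058 in edgeR), but was lower at -0.23 without CTRL replicate 2 or CML 2wk replicate 1 and at -0.21 without CML 2wk replicate 6. It also passed as lower in DESeq2 and without the filter on low counts, and 16.0% of its exonic bases lie opposite Polg. Slx4, the nuclease scaffold, fell more steeply, from a median of 64.2 CPM in CTRL (61.5 to 69.1) to 39.9 CPM in CML 2wk (33.5 to 56.8), with no overlap (log2 fold change -0.63 ± 0.11, adjusted p = 0.00016 in edgeR). With the length trend removed Slx4 stayed lower at -0.35 while Fancd2 was at 0.053. With both trends removed Slx4 was at -0.16 (adjusted p = 0.28 in edgeR) and Fancd2 at -0.00087.

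The genes of the BRCA complex changed by subunit. Brca1 fell from a median of 118 CPM in CTRL (107 to 124) to 92.7 CPM in CML 2wk (70.9 to 99.5), a log2 fold change of -0.39 ± 0.076 (adjusted p = 0.00053 in edgeR), without overlap between the groups. Bard1, its obligate RING partner, fell by the same amount, from a median of 89.9 CPM in CTRL (73.9 to 98.7) to 69.5 CPM in CML 2wk (52.1 to 79.1), a log2 fold change of -0.39 ± 0.092 (adjusted p = 0.0024 in edgeR). In 5 of 6 CML 2wk libraries it was below all of CTRL. Brca2 was at a median of 183 CPM in CTRL (164 to 197) and 165 CPM in CML 2wk (145 to 204), a log2 fold change of -0.11 ± 0.078 (adjusted p = 0.24 in edgeR) and Palb2, which links BRCA1 to BRCA2, at a median of 38.0 CPM in CTRL (34.1 to 39.3) and 37.6 CPM in CML 2wk (29.0 to 43.5), a log2 fold change of -0.016 ± 0.088 (adjusted p = 0.89 in edgeR). Neither passed the test, although Brca2 was lower at -0.17 without CML 2wk replicate 5 and at -0.24 with the GC trend removed. Both passed as higher once the length trend was removed, at 0.22 and 0.28, the fit in which Brca1 (-0.10) and Bard1 (-0.17) no longer passed. With both trends removed Bard1 was lower at -0.32 and the other 3 did not pass.

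Of the 5 genes of the BCDX2 and CX3 complexes, 2 rose, 2 fell and 1 did not pass the test. Rad51b rose from a median of 17.8 CPM in CTRL (17.2 to 18.8) to 24.0 CPM in CML 2wk (19.5 to 27.8), a log2 fold change of 0.40 ± 0.091 (adjusted p = 0.0015 in edgeR). Xrcc2 rose from a median of 32.2 CPM in CTRL (29.9 to 33.6) to 40.9 CPM in CML 2wk (35.6 to 50.2), a log2 fold change of 0.37 ± 0.075 (adjusted p = 0.00061 in edgeR). In both genes every CML 2wk library was above every CTRL library. Rad51d, whose product pairs directly with XRCC2, fell from a median of 33.6 CPM in CTRL (33.0 to 37.7) to 26.8 CPM in CML 2wk (25.4 to 29.9) without overlap (log2 fold change -0.34 ± 0.065, adjusted p = 0.00043 in edgeR). Xrcc3 fell from a median of 21.3 CPM in CTRL (20.1 to 23.5) to 16.7 CPM in CML 2wk (12.4 to 21.003), a log2 fold change of -0.36 ± 0.11 (adjusted p = 0.011 in edgeR). It was below all of CTRL in 5 of 6 libraries but was at 0.032 with the GC trend removed. Rad51c, the subunit common to both complexes, was at a median of 6.79 CPM in CTRL (6.24 to 8.21) and 5.95 CPM in CML 2wk (3.72 to 8.04) and did not pass (log2 fold change -0.21 ± 0.16, adjusted p = 0.28 in edgeR). It was the lowest of the 5 per kilobase of exon with medians of 1.55 and 1.356 CPM per kb. Within the BCDX2 complex, therefore, Rad51b and Xrcc2 were higher, Rad51d was lower and Rad51c was not called.

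Of the 4 genes of later recombination steps, 2 fell and 2 did not pass the test. Rad52, which anneals strands, fell from a median of 25.3 CPM in CTRL (24.6 to 28.7) to 21.01 CPM in CML 2wk (18.3 to 23.5) without overlap (log2 fold change -0.30 ± 0.077, adjusted p = 0.0039 in edgeR). This was -0.088 with the length trend removed. Rad54l, a DNA-remodelling motor, was at a median of 73.4 CPM in CTRL (68.9 to 78.0) and 67.5 CPM in CML 2wk (46.7 to 73.1), a log2 fold change of -0.18 ± 0.091 (adjusted p = 0.11 in edgeR). It did not pass, except as lower without the filter on low counts, and 15.4% of its exonic bases lie opposite Lrrc41. Blm, the helicase that dissolves joined molecules, fell from a median of 113 CPM in CTRL (95.2 to 118) to 97.0 CPM in CML 2wk (90.1 to 109), a log2 fold change of -0.17 ± 0.066 (adjusted p = 0.036 in edgeR). Only 1 of 6 libraries was below all of CTRL, and the call was lost without CTRL replicate 1, 4, 5 or 6 or CML 2wk replicate 3 or 4 (log2 fold change -0.18 to -0.16). The call was also lost with upper-quartile scaling (-0.094) and without replicate 6 of both groups (-0.13). The value was 0.11 with the length trend removed. Rmi1, a subunit of the same complex, was at a median of 25.0 CPM in CTRL (23.5 to 27.2) and 27.6 CPM in CML 2wk (25.4 to 35.8), a log2 fold change of 0.18 ± 0.083 (adjusted p = 0.068 in edgeR) and did not pass. It passed as higher without CML 2wk replicate 1 (0.22), without CML 2wk replicates 2 and 4 (0.21), with upper-quartile scaling (0.26) and with the length trend removed (0.38), and was at -0.10 with the GC trend removed.

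Within MRN, the sensor of broken ends, the ATPase gene was the one that moved most. Rad50 fell from a median of 187 CPM in CTRL (169.9 to 200.4) to 131 CPM in CML 2wk (121 to 152), without overlap (log2 fold change -0.47 ± 0.066, adjusted p = 2.8e-05 in edgeR). Mre11a, the nuclease, fell from a median of 107 CPM in CTRL (97.7 to 110.3) to 94.0 CPM in CML 2wk (91.0 to 98.4), a log2 fold change of -0.16 ± 0.049 (adjusted p = 0.013 in edgeR). It was below all of CTRL in 4 of 6 libraries but was at 0.040 with the length trend removed, and its call was lost with upper-quartile scaling and without replicate 6 of both groups. Nbn, the subunit that recruits ATM, was at a median of 50.3 CPM in CTRL (47.7 to 51.8) and 51.8 CPM in CML 2wk (47.5 to 57.4) and did not pass (log2 fold change 0.059 ± 0.059, adjusted p = 0.41 in edgeR), but it passed as lower with both trends removed (-0.19). Per kilobase of exon, Rad50 went from a median of 34.8 to 24.4 CPM per kb, while Mre11a was at 18.0 and 15.9 and Nbn at 19.8 and 20.4, so that the gap between Rad50 and Nbn narrowed.

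Of the checkpoint kinases, Atm and Chek2 fell, Chek1 rose and Atr did not pass the test. Atm fell from a median of 188 CPM in CTRL (180.1 to 211) to 136 CPM in CML 2wk (131 to 154), with every CML 2wk library below every CTRL library (log2 fold change -0.47 ± 0.059, adjusted p = 9.1e-06 in edgeR). Chek2, its effector, fell from a median of 45.4 CPM in CTRL (41.3 to 48.0) to 40.0 CPM in CML 2wk (27.8 to 40.8), also without overlap (log2 fold change -0.26 ± 0.087, adjusted p = 0.019 in edgeR). The lowest library was CML 2wk replicate 2. On the other axis, Atr was at a median of 146 CPM in CTRL (138 to 162) and 141 CPM in CML 2wk (120.4 to 149) and did not pass (log2 fold change -0.10 ± 0.064, adjusted p = 0.20 in edgeR). It passed as higher with the length trend removed (0.23) and as lower with the GC trend removed (-0.31). Chek1, the effector of ATR in S phase and G2, rose from a median of 59.1 CPM in CTRL (55.0 to 61.9) to 76.5 CPM in CML 2wk (65.6 to 82.4), all 6 libraries being above CTRL (log2 fold change 0.35 ± 0.060, adjusted p = 0.00019 in edgeR). The rise of Chek1 was 0.50 with the length trend removed and 0.18 with both removed. Chek2 stayed lower at -0.31 and -0.37 in those fits, and its adjusted p was 0.051 in edgeR with the GC trend alone removed and 0.10 with upper-quartile scaling.

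All 4 end joining genes had a negative fold change, of which 3 passed. Xrcc5, which encodes Ku80, fell from a median of 43.6 CPM in CTRL (40.5 to 52.0) to 31.6 CPM in CML 2wk (24.3 to 41.0), a log2 fold change of -0.54 ± 0.12 (adjusted p = 0.0015 in edgeR). It was below all of CTRL in 5 of 6 libraries. Xrcc6, which encodes its partner Ku70, fell from a median of 107 CPM in CTRL (91.8 to 116) to 89.9 CPM in CML 2wk (68.5 to 102), a log2 fold change of -0.25 ± 0.093 (adjusted p = 0.029 in edgeR). Between the replicate 6 libraries of the 2 groups it differed by -0.013 on the log2 scale. It lost its call without CTRL replicate 1, 3 or 5 or CML 2wk replicate 5 (-0.25 to -0.23), and was at 0.0017 with the GC trend removed. Its call was also lost with upper-quartile scaling (-0.18), and 7.69% of its exonic bases lie opposite Desi1. Prkdc, the catalytic subunit of DNA-PK, fell from a median of 152 CPM in CTRL (148 to 171) to 138 CPM in CML 2wk (109.6 to 144) without overlap (log2 fold change -0.24 ± 0.077, adjusted p = 0.015 in edgeR). The value was 0.094 with the length trend removed, and the call was lost with upper-quartile scaling and without replicate 6 of both groups. Lig4, the ligase of this route, was the least abundant of the 37 genes per kilobase, with medians of 1.34 and 1.19 CPM per kb, and did not pass (log2 fold change -0.23 ± 0.18, adjusted p = 0.28 in edgeR).

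The 2 remaining genes, the most abundant per kilobase, both fell. Parp1, the main sensor of strand breaks, fell from a median of 399 CPM in CTRL (334 to 415) to 259 CPM in CML 2wk (216 to 290.2), without overlap (log2 fold change -0.61 ± 0.077, adjusted p = 9.5e-06 in edgeR), or from a median of 75.3 to 49.0 CPM per kb. Msh6, a subunit of the mismatch sensor, fell from a median of 249 CPM in CTRL (229.7 to 259) to 179.8 CPM in CML 2wk (163 to 207), without overlap (log2 fold change -0.44 ± 0.065, adjusted p = 3.6e-05 in edgeR), or from 57.3 to 41.4 CPM per kb. Both stayed lower with both trends removed, at -0.21 and -0.30.

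Because partners in a complex are measured in the same library, 15 ratios of partner genes were formed within each library, which removes library scaling. The pairs were chosen after the fold changes of their genes had been seen, so the ratios are a description and carry no test. In 8 of the 15 pairs the ratios of the 2 groups did not overlap, and since 37.6% of all genes did not overlap on their own, nothing particular to partner genes can be read from that count. The ratio of Fancc to Fance went from a median of 1.26 in CTRL to 2.23 in CML 2wk, a difference of 0.83 on the log2 scale. That of Xrcc2 to Rad51d went from 0.931 to 1.495, a difference of 0.70. The ratio of Fanca to Fancg went from 2.03 to 3.24, and that of Rad51b to Rad51c from 2.56 to 3.97.

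Among the kinases, the ratio of Chek1 to Chek2 was 1.22 to 1.41 in CTRL and 1.75 to 2.36 in CML 2wk, a log2 difference of 0.61. The ratio of Atm to Atr was 1.23 to 1.33 in CTRL and 0.928 to 1.09 in CML 2wk, a difference of -0.36. For Rad50 the differences were -0.31 against Mre11a and -0.52 against Nbn. With both trends removed these 8 differences had the same sign, with Chek1 to Chek2 at 0.55, Atm to Atr at -0.35, Rad50 to Mre11a at -0.30, Rad50 to Nbn at -0.21 and Fancc to Fance at 0.72. The other 3 were at 1.01 (Fanca to Fancg), 0.73 (Xrcc2 to Rad51d) and 0.52 (Rad51b to Rad51c).

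In the other pairs the groups overlapped. The difference was 0.44 for Fancb to Fancl and -0.35 for Blm to Rmi1, the latter -0.038 with both trends removed. The ratio of Brca1 to Bard1 was 1.25 to 1.44 in CTRL and 1.22 to 1.48 in CML 2wk, a log2 difference of -0.0014. The ratio of Fancd2 to Fanci was 1.23 to 1.33 and 1.124 to 1.44, a difference of -0.041. Xrcc5 to Xrcc6 was 0.353 to 0.470 in CTRL but 0.238 to 0.599 in CML 2wk, with an SD of 0.47 on the log2 scale in CML 2wk. The differences were -0.089 for Brca2 to Palb2 and 0.13 for Rad51c to Xrcc3. The plot of ratios by library shows each pair around its CTRL mean.

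**Figure D4:**
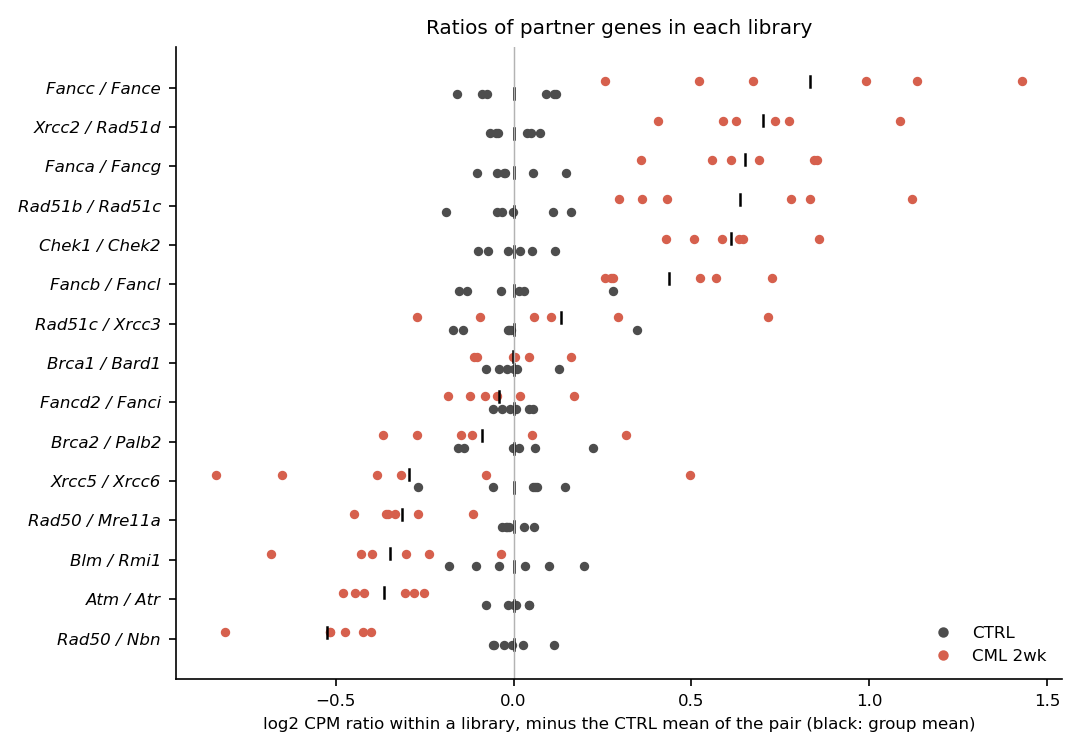
Log2 ratio of CPM of 2 partner genes in each library, minus the CTRL mean of that pair (horizontal), for 15 pairs (vertical), with CTRL in grey, CML 2wk in red and black ticks at the group means. The 6 CML 2wk libraries lie wholly to the right of CTRL for Fancc to Fance and Chek1 to Chek2 (group means 0.83 and 0.61), wholly to the left for Rad50 to Nbn and Atm to Atr, and around CTRL for Brca1 to Bard1.

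Libraries of the CML 2wk group varied more than those of CTRL. The coefficient of variation of CPM was larger in CML 2wk for 34 of the 37 genes, with medians of 5.60% in CTRL and 12.0% in CML 2wk. CML 2wk replicate 2 was the lowest of its group for 25 of the 37 genes and the highest for 2, while it was the lowest for 27.4% and the highest for 24.3% of all genes tested. In that library the summed mast cell and basophil markers were at 2370 CPM and the stromal markers at 962 CPM, against 66.9 to 368 CPM of stromal markers in the other CML 2wk libraries. Without CML 2wk replicate 2 there were 6 higher and 20 lower genes. The median log2 fold change of the 37 genes was then -0.154, against -0.234 with all libraries. Without replicates 2 and 4, the 2 with the highest stromal sums, the counts were 7 and 18 and the median was -0.148. The part of these markers in the lower levels was not tested. Library numbers of replicates 1 to 5 run separately in each group, so that numbering and group cannot be told apart there. Only the replicate 6 libraries share a series of numbers. The labels do not state what the numbering stands for, and they name no sequencing run or batch.

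The other genes of these pathways were read from 5 lists. Of 92 genes, 22 were higher, 30 were lower and 40 did not pass, with a median log2 fold change of -0.062. Among all genes tested 30.6% were higher and 29.0% lower, shares that the counts of these 92 genes lie near, and nothing particular to the lists is read from their counts. With upper-quartile scaling the split was 28 higher and 25 lower, with the length trend removed 32 and 27, with the GC trend removed 29 and 25, and with both removed 32 and 22. The lists were drawn up with earlier results of these data known, and all members of each are in the counts.

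Of 28 other recombination genes, 10 rose and 6 fell. Zswim7, a zinc finger gene of recombination, rose from a median of 4.11 CPM in CTRL (3.63 to 4.56) to 7.98 CPM in CML 2wk (6.01 to 13.1), a log2 fold change of 1.04 ± 0.17 (adjusted p = 0.00012 in edgeR). Brcc3, the deubiquitinase of the BRCA1-A complex, rose from a median of 49.6 CPM in CTRL (44.8 to 54.8) to 87.1 CPM in CML 2wk (83.9 to 93.5), a log2 fold change of 0.82 ± 0.057 (adjusted p = 5.8e-08 in edgeR). Sem1, a small acidic partner of BRCA2 and of the proteasome, rose from a median of 63.5 CPM in CTRL (51.2 to 70.0) to 102 CPM in CML 2wk (77.6 to 124), a log2 fold change of 0.76 ± 0.11 (adjusted p = 5.3e-05 in edgeR). In all 3 genes the groups did not overlap. Babam2, a scaffold of the same BRCA1-A complex as Brcc3, fell (-0.39), as did the nuclease subunit Eme1 (-0.31) and the topoisomerase Top3a (-0.29), the enzyme of the complex of Blm and Rmi1. Without the trends Top3a was at 0.056, and Eme1 did not pass with the GC trend removed (-0.063).

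Of 15 other Fanconi genes 2 rose and 4 fell. Faap24, the partner of FANCM, rose from a median of 13.04 CPM in CTRL (11.9 to 16.1) to 23.8 CPM in CML 2wk (18.9 to 26.2), a log2 fold change of 0.79 ± 0.10 (adjusted p = 1.1e-05 in edgeR), as did Cenps (0.42), which encodes a histone-fold partner of the same translocase, while Fancm itself did not pass. Cenps lost its call with the length trend removed (0.20). Rev3l, the catalytic subunit of translesion polymerase zeta, fell from a median of 133 CPM in CTRL (127 to 137) to 93.2 CPM in CML 2wk (79.2 to 114), a log2 fold change of -0.51 ± 0.075 (adjusted p = 3.9e-05 in edgeR). The other 2 named as lower were Faap100 and Faap20, described with the core.

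Other signalling genes were lower in 10 of 21 and higher in 4. Mdc1, which binds marked chromatin at breaks, fell from a median of 171 CPM in CTRL (157 to 193) to 82.7 CPM in CML 2wk (70.9 to 92.6), a log2 fold change of -1.07 ± 0.077 (adjusted p = 7.1e-08 in edgeR). Wee1, the kinase that holds CDK1 inactive, fell from a median of 163 CPM in CTRL (160.4 to 174) to 95.4 CPM in CML 2wk (83.7 to 109), a log2 fold change of -0.79 ± 0.062 (adjusted p = 1.4e-07 in edgeR). Timeless fell (log2 fold change -0.68 ± 0.083) and Tipin, whose product is its partner at the replication fork, rose (log2 fold change 0.71 ± 0.086). With both trends removed Timeless was at -0.21 and Tipin at 0.16, the call of Tipin being lost. Tti2 (0.25), a chaperone of ATM and ATR, was higher. Rad17 (0.32), a clamp loader, was higher with overlapping groups, but was at -0.12 with the GC trend removed and 0.13 with both removed, neither past the test.

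Of 10 other end joining genes 4 fell. Dntt, the template-free polymerase of lymphoid progenitors, fell the most, from a median of 326 CPM in CTRL (235 to 451) to 99.8 CPM in CML 2wk (21.6 to 152), a log2 fold change of -1.87 ± 0.33 (adjusted p = 0.00018 in edgeR). Polm (-0.80) and Aplf (-0.58) also fell, and Aptx (0.35), an end-cleaning enzyme, rose. Polm lost its call with the GC trend removed (-0.43). Of 18 mismatch, base excision and PARP genes, 4 rose and 6 fell. Pms1 (0.46) and Pms2 (0.36), partners in mismatch repair, and Polb (0.35) were higher, while Msh6 was lower. Polb did not pass with both trends removed (0.22). Xrcc1, the scaffold that PARP1 recruits, fell from a median of 52.2 CPM in CTRL (48.6 to 54.7) to 31.4 CPM in CML 2wk (28.5 to 34.0), a log2 fold change of -0.72 ± 0.060 (adjusted p = 2.3e-07 in edgeR), a value of 0.016 with both trends removed. Parp3 (-0.71) and the replicative ligase Lig1 (-0.67) fell with Parp1.

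Among proliferation genes, the summed level of G2 and M phase genes differed between the groups and that of S phase genes overlapped. Of 20 genes of G2 and M phase, 3 were higher and 12 lower, with a summed level of 4879 to 5825 CPM in CTRL and 3068 to 3851 CPM in CML 2wk, without overlap. Of 23 S phase genes, 8 were higher and 12 lower, with sums of 4504 to 5446 CPM and 4355 to 5397 CPM that overlapped. Among all genes tested 30.6% were higher and 29.0% lower. With the length trend removed 10 S phase genes were higher and 6 lower, and with both trends removed 6 and 6. For G2 and M phase genes these counts were 3 and 13, and 3 and 14. Chek1 and Fancb were higher while the G2 and M phase sum was lower, and the part of the cell cycle in the changes of the 37 genes was not tested.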

How the data were processed

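Bulk RNA-seq of sorted LSK cells (Kapa RNA HyperPrep, paired-end HiSeq4000) was deposited as 1 table of whole-number counts per library. The counts were made by the authors, and the submitters' processing notes name FastQC 0.11.9, fastp 0.23.2, STAR 2.7.10a, featureCounts 2.0.1 and DESeq2 1.36.0 with GRCm39, whereas the methods of the study name other trimming and alignment tools. The annotation release, strand setting and treatment of multi-mapped reads were not given in the sources used here. Gene names came from a table of Ensembl IDs (52073 of 56748 matched). The values are read counts without molecular identifiers, with the totals per library given in the report.

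Genes were filtered with filterByExpr and tested with edgeR 4.0.16 (R 4.3.3) by the quasi-likelihood test with TMM factors, group as the only term, all 12 libraries and Benjamini-Hochberg adjustment over 18438 genes. Levels are CPM of the TMM-scaled library size, and CPM per kb divides by exon length from GENCODE M21. The SE of a log2 fold change is its size over the square root of F. Trends were removed by an offset per library from the median deviation of genes in 20 bins of exon length, GC content or both, an alternative chosen, like the fit without CML 2wk replicates 2 and 4, after seeing the data, and run on the 17803 genes with an exon length. DESeq2 1.42.0, other factors, no filter, a replicate block and libraries left out were the other alternatives. The script was tested on simulated data. Of 100 genes changed by 0.5 on the log2 scale 37 were called, and of 100 changed by 1 there were 56, all in the right direction. Of 18238 unchanged genes 5 were called. The simulation changed only 200 of 18438 genes, whereas 59.5% of genes were called in the data. Benjamini-Hochberg adjustment is stricter where fewer genes change, so the shares called in the simulation do not give the power of the real fit. A gene that did not pass the test is still not shown to be unchanged.

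The 37 genes and all lists were chosen with earlier results of these data known. All 37 are named, and from each of 5 lists of other repair genes up to 3 each way with the largest change at adjusted p under 0.05 and a mean log2 CPM of at least 1. Some genes of those lists are not reported here. P-values measure the spread between libraries whose separate origin the labels do not state, and no 2 libraries were alike within counting noise. Promoter windows are from RefSeq.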

Additional observations from a re-analysis of the deposited data

Results flagged for a closer look

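Each of the 37 genes was examined in both groups of 6 libraries, 74 sets of values in all, for a highest or lowest library whose gap to its neighbour, as a share of the range of its group, passed Dixon's critical value. This was met in 9 of the 74, where chance gives about 3.7. The library at the low end was CTRL replicate 2 for Brca1 (107 CPM, the next at 117), CTRL replicate 5 for Palb2 (34.1 CPM, the next at 37.5) and CML 2wk replicate 2 for Chek2 (27.8 CPM, the next at 38.3). The library at the high end was CTRL replicate 2 for Rad51c (8.21 CPM, the next at 6.86) and for Rad52 (28.7 CPM, the next at 26.1), and CTRL replicate 6 for Prkdc (171 CPM, the next at 156). In CML 2wk it was replicate 5 for Brca2 (204 CPM, the next at 166), replicate 3 for Rmi1 (35.8 CPM, the next at 29.3) and replicate 1 for Atm (154 CPM, the next at 139). The calls of Brca1, Rad52, Atm, Chek2 and Prkdc were each kept in all 12 fits that left out 1 library.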

How the results depend on the processing

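All 5 higher genes kept direction and call in each of the 22 alternative fits, and 14 of the 20 lower genes did so in all but the fits with trends removed (7 of 20 with those). Removing the length trend changed the counts to 10 higher and 11 lower, and removing the GC trend alone to 6 and 17. Removing both trends gave 11 lower, and an adjusted p under 0.01 in edgeR left 12 lower. The gene lengths and GC contents behind these shifts are given in the report, and the cause of the trends was not tested. Leaving out 1 library at a time gave 5 to 6 higher and 18 to 21 lower genes, and 23 of the 25 calls were kept throughout, all but Blm and Xrcc6. Among the 92 other repair genes the same fits gave 20 to 23 higher and 27 to 35 lower. The replicate numbers did not pair the libraries: correlations of deviations between libraries of the same number ran from -0.125 to 0.0679. Only CTRL replicate 1 had its best match in the library of its own number. With the replicate block 6 genes were higher and 21 lower, with 29 lower and 21 higher among the other repair genes.

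The fold changes that turned sign, on the log2 scale, were these. With the length trend removed they were Brca2 (0.22), Palb2 (0.28), Rad54l (0.11), Blm (0.11), Fancf (-0.22), Fancd2 (0.053), Fanci (0.023), Mre11a (0.040), Nbn (-0.022), Atr (0.23) and Prkdc (0.094). With the GC trend removed they were Palb2 (0.0023), Xrcc3 (0.032), Rmi1 (-0.10), Fance (0.11), Fancm (-0.038), Nbn (-0.0035) and Xrcc6 (0.0017). With both removed they were Palb2 (0.21), Rad54l (0.036), Rmi1 (-0.021), Fanca (0.17), Fance (0.15), Fancl (-0.046), Nbn (-0.19) and Xrcc6 (0.10). Palb2 also turned with upper-quartile scaling (0.060) and without replicate 6 of both groups (0.0062), and Fancf turned without CML 2wk replicates 2 and 4 (-0.027). Without the filter on low counts Fancf was at -0.012, Fancm at -0.048 and Nbn at -0.012. With 1 library left out at a time Palb2 ran from -0.067 to 0.036, Fancf from -0.0065 to 0.12 and Fancm from -0.032 to 0.10, none of them past the test before or in those fits. The least counted genes, Lig4 and Rad51c, had the largest standard errors (0.18 and 0.16).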
